A study of Mus musculus with 4 samples.

Results

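The genes described here were Lgr5, Olfm4, Ascl2, Smoc2, Sox9, Axin2, Slc12a2 and Prom1, 8 markers of intestinal stem and progenitor cells of the crypt, among 19339 genes listed in each RNA-seq library. They were chosen by name, and each matched 1 Entrez identifier. The libraries were made not from crypt cells but from TCRβ+CD8αα+ intraepithelial lymphocytes (IELs), T cells that lie between the epithelial cells of the small intestine. IELs of C57BL/6 mice were sorted as CD45+CD4-TCRβ+CD8α+CD8β- cells, and each library held the pooled RNA of 3 mice of a genotype. The 2 control libraries, with the replicate numbers 1 and 3, came from Kdm6b fl/fl mice, which carry loxP-flanked Kdm6b alleles and no Cre. The 2 Kdm6b-deficient libraries, also numbered 1 and 3, came from Kdm6b fl/fl-CD4Cre mice, in which Cre acts in T cells from the late double-negative thymocyte stage. Age and sex are not given in the sources used here, and p-values measure the spread between these pools. The values are FPKM, which count fragments relative to transcript length and library size.

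Intestinal stem cells sit at the base of the crypt between Paneth cells and supply all cell types of the epithelium. Wnt ligands, amplified by R-spondins through Lgr5 and its relatives, keep them dividing by stabilizing β-catenin, which acts with TCF/LEF factors on genes such as Axin2, Ascl2 and Sox9. Notch signals between neighbouring cells keep crypt progenitors from entering the secretory lineages. Crypt cells are epithelial and do not carry CD45, so the sort gate was not set for the cells that these genes mark.

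The stretches upstream of Olfm4, which had the highest level of the 8 genes, and of Ascl2, a Wnt-driven transcription factor, are shown because these genes had similar profiles over the libraries while their promoters differ in composition. Both are the 250 bases before the annotated start site, read 5′ to 3′ on the strand of the gene, from RefSeq on GRCm38.p6, and capitals mark CG dinucleotides. The Olfm4 stretch lies at chr14:80000052-80000301 on the plus strand and the Ascl2 stretch at chr7:142969265-142969514 on the minus strand.
Olfm4: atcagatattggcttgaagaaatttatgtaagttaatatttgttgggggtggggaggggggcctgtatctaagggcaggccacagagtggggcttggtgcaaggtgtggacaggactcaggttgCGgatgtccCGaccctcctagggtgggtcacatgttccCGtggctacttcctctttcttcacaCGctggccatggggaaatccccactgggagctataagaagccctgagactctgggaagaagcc
Ascl2: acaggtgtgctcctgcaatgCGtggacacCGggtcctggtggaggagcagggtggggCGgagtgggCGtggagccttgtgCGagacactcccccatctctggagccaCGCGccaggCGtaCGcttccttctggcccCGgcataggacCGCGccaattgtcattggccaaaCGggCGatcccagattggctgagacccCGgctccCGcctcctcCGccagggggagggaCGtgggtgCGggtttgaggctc
The Olfm4 stretch holds 4 CG dinucleotides and the Ascl2 stretch 19. RefSeq windows of 300 bases, from 250 before to 50 after a start site, were searched for 4 of the 8 genes, namely Olfm4, Ascl2, Axin2 and Prom1, with 2 windows for Prom1. Lgr5, Smoc2 and Sox9 had no match in the window table, and Slc12a2 and the other genes of its chromosome were left out of this search. In the whole windows the CG dinucleotides numbered 5 for Olfm4, 23 for Ascl2, 31 for Axin2, and 10 and 4 for Prom1, against a median of 7 over 32851 windows of mouse genes. The GC box GGGCGG, searched on both strands, was present in the window of Ascl2 at position -196 from the start site, in that of Axin2 at -58 and -20 and in 1 window of Prom1 at -62. Of all windows, 35.7% hold this motif. A TCF/LEF core, taken as CTTTG followed by 2 bases that are each A or T, was found on neither strand in any of the 5 windows, and 16.9% of all windows hold it. This says only that these letters are not in the windows.

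Kdm6b itself, the deleted gene (Entrez 216850, chromosome 11), was at 16.50 and 16.01 FPKM in control 1 and 3, and at 18.2 and 11.1 FPKM in the libraries labelled Kdm6b-deficient 1 and 3. The log2 fold change was -0.18 (SE 0.29, limma adjusted p = 0.886), and the value in the library labelled Kdm6b-deficient 1 was above both controls. Reads over the deleted exons were not analysed here, so control and Kdm6b-deficient stand for the labels of the libraries throughout. Low FPKM values fall on multiples of the worth of 1 fragment, which put the depth at about 14200000 and 14000000 fragments in control 1 and 3 and at about 14200000 and 11800000 in Kdm6b-deficient 1 and 3. The 12 IEL marker genes were detected in each library: Gzma, a granule protease, was at 8837 to 17390 FPKM and Cd3g, a chain of the T cell receptor complex, at 1259 to 2167 FPKM. Of the genes that mark cells outside the gate, Cd8b1 was at 0.00 to 1.64 FPKM and Cd4 at 3.17 to 30.6 FPKM.

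All 8 crypt genes were detected in each of the 4 libraries, at their lowest in control 1 and at their highest in Kdm6b-deficient 3. Control 3 and Kdm6b-deficient 1 lay between them, with Kdm6b-deficient 1 at 0.836-fold (Smoc2) to 1.26-fold (Axin2) of control 3 in 7 genes and at 1.61-fold in Slc12a2. A gene was tested when it had at least 1 FPKM in at least 2 libraries, and 7 of the 8 genes passed this filter, all except Axin2. On the scale of log2(FPKM + 1), which understates the change of low genes, the log2 fold change (libraries labelled Kdm6b-deficient minus control) was above 1 for 6 of these 7 and below -1 for none. Over all 12009 genes tested 6.20% were above 1 and 0.441% below -1. The median was 1.39 for the 7 genes and 0.001 for all genes tested. None of the 7 had an adjusted p under 0.05 in limma, nor did any other gene (0 of 12009). Without adjustment 642 genes were under 0.05 in limma, among them Olfm4 and Slc12a2. Each of the 7 had an adjusted p of 0.755. The smallest p that an exact two-sided permutation test of a single gene can reach in this design is 0.333. The number above 1 depended on single libraries: without control 1 it was 0 of 7 (2.54% of all genes) and without Kdm6b-deficient 3 it was 0 of 7 (2.96%), while it was 7 of 7 without control 3 (10.6%) or without Kdm6b-deficient 1 (10.9%).

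**Figure D1:**
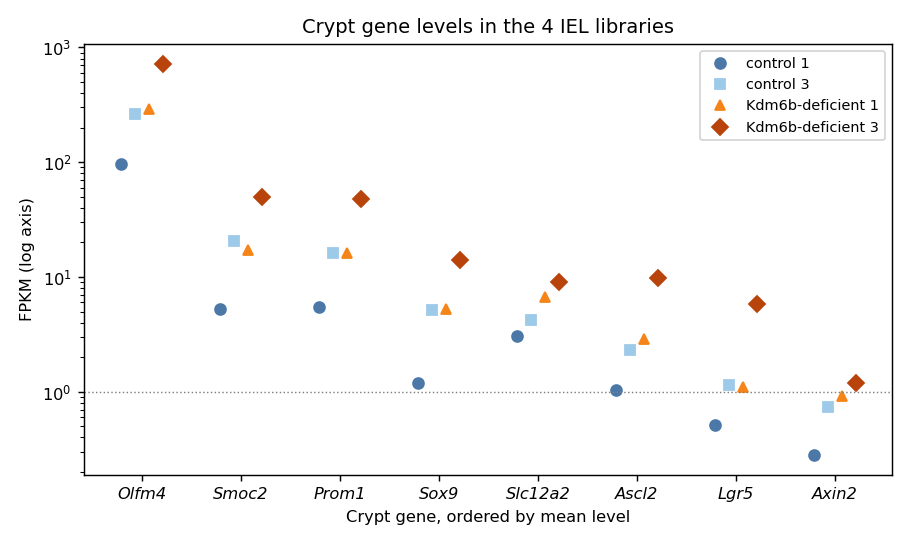
Level of each crypt gene in FPKM (log axis) in the 4 libraries, 1 point per library, with genes in order of their mean and the dotted line at 1 FPKM. In each gene control 1 is the lowest point and Kdm6b-deficient 3 the highest, and control 3 and Kdm6b-deficient 1 lie between them, furthest apart in Slc12a2 (1.61-fold).

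The secreted marker genes had the highest mean levels. Olfm4 (Entrez 380924, chr14:80000302-80023141) encodes olfactomedin 4, a glycoprotein secreted by crypt base columnar cells of the small intestine. Its level was 96.6 FPKM in control 1, 263 FPKM in control 3, 293 FPKM in Kdm6b-deficient 1 and 723 FPKM in Kdm6b-deficient 3. Both Kdm6b-deficient libraries lay above both controls, but Kdm6b-deficient 1 was only 1.11-fold above control 3. The means were 180 ± 118 FPKM in control and 508 ± 304 FPKM in Kdm6b-deficient libraries (SD, n = 2 each), and the log2 fold change was 1.52 (SE 0.61, limma adjusted p = 0.755). Smoc2 (Entrez 64074, chr17:14279490-14404790) encodes a secreted matricellular calcium-binding protein. It was at 5.25, 20.4, 17.1 and 50.1 FPKM in control 1, control 3, Kdm6b-deficient 1 and Kdm6b-deficient 3. The groups overlapped, since control 3 was above Kdm6b-deficient 1. The log2 fold change of Smoc2 was 1.39 (SE 0.73, limma adjusted p = 0.755), with means of 12.8 ± 10.7 and 33.6 ± 23.4 FPKM.

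Lgr5 (Entrez 14160, chr10:115450314-115587780) is the R-spondin receptor by which crypt base columnar stem cells are defined. It was a low gene here, at 0.51 FPKM in control 1, 1.14 FPKM in control 3, 1.11 FPKM in Kdm6b-deficient 1 and 5.85 FPKM in Kdm6b-deficient 3. The groups overlapped, and Kdm6b-deficient 3 stood apart, 5.13-fold above control 3. The log2 fold change was 1.08 (SE 0.62, limma adjusted p = 0.755), with means of 0.825 ± 0.446 FPKM in control and 3.48 ± 3.35 FPKM in Kdm6b-deficient libraries. At the estimated depth, the level in control 1 corresponds to about 17 to 33 fragments and that in Kdm6b-deficient 3 to about 164 to 317, for the shortest and the longest annotated transcript. Counting error is thus larger for Lgr5 than for Olfm4, whose level in control 1 corresponds to about 2056 to 3647 fragments.

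Among the transcription factors, Ascl2 (Entrez 17173, chr7:142966822-142969264), which controls the stem cell programme under Wnt, was at 1.04 and 2.33 FPKM in control 1 and 3 and at 2.90 and 9.72 FPKM in Kdm6b-deficient 1 and 3. Both Kdm6b-deficient libraries lay above both controls. The log2 fold change of Ascl2 was 1.31 (SE 0.57, limma adjusted p = 0.755). Its transcripts are short, and the level in control 1 corresponds to about 10 to 22 fragments and that in Kdm6b-deficient 3 to about 78 to 169, fewer than for Lgr5. Sox9 (Entrez 20682, chr11:112782210-112787757), a factor of stem, Paneth and some enteroendocrine cells, was at 1.2 and 5.11 FPKM in control 1 and 3 and at 5.29 and 14.1 FPKM in Kdm6b-deficient 1 and 3. Here too both Kdm6b-deficient libraries were above both controls, with 1.04-fold between control 3 and Kdm6b-deficient 1. Its log2 fold change was 1.41 (SE 0.65, limma adjusted p = 0.755).

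Axin2 (Entrez 12006, chr11:108917828-108950783), a scaffold of the β-catenin destruction complex that Wnt signals induce as negative feedback, had the lowest level of the 8 genes. It was at 0.28 and 0.73 FPKM in control 1 and 3 and at 0.92 and 1.2 FPKM in Kdm6b-deficient 1 and 3. Both Kdm6b-deficient libraries were above both controls, but only Kdm6b-deficient 3 reached 1 FPKM, so the gene was not tested. These levels correspond to about 1 to 16 fragments in control 1 and about 5 to 59 in Kdm6b-deficient 3, which leaves the fold between libraries uncertain by counting alone.

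The other 2 genes encode membrane proteins. Prom1 (Entrez 19126, chr5:43993621-44102047) encodes prominin-1 (CD133), a pentaspan protein of membrane protrusions found on stem and transit-amplifying cells of the crypt. It was at 5.51, 16.3, 16.1 and 48.0 FPKM in control 1, control 3, Kdm6b-deficient 1 and Kdm6b-deficient 3, so that control 3 and Kdm6b-deficient 1 were nearly equal and the groups overlapped. The log2 fold change of Prom1 was 1.45 (SE 0.66, limma adjusted p = 0.755). Slc12a2 (Entrez 20496, chr18:57878512-57946821) encodes NKCC1, the basolateral Na-K-Cl cotransporter that feeds chloride secretion in crypt cells. It was at 3.07 and 4.18 FPKM in control 1 and 3 and at 6.75 and 9.11 FPKM in Kdm6b-deficient 1 and 3. Both Kdm6b-deficient libraries were above both controls, with the widest gap of the 8 genes between control 3 and Kdm6b-deficient 1, 1.61-fold. Slc12a2 had the smallest log2 fold change of the 7 genes tested, 0.95, and also the smallest SE, 0.31 (limma adjusted p = 0.755). Means were 3.63 ± 0.785 FPKM in control and 7.93 ± 1.67 FPKM in Kdm6b-deficient libraries.

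Counted over the 7 genes tested, 4 had both Kdm6b-deficient libraries above both controls (Olfm4, Ascl2, Sox9 and Slc12a2) and 3 overlapped (Lgr5, Smoc2 and Prom1). Of all genes tested, 18.4% had both Kdm6b-deficient libraries above and 18.6% had both below. The order control 1, control 3, Kdm6b-deficient 1, Kdm6b-deficient 3 held from lowest to highest for 5 of the 8 genes, and in the other 3, the overlapping ones, control 3 and Kdm6b-deficient 1 changed places.

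Within each library the order of the genes by FPKM, which is per transcript length, was nearly constant. Olfm4 ranked 1 in the 4 libraries and made up 84.0% to 85.4% of the summed FPKM of the 8 genes. Prom1 and Smoc2 took ranks 2 and 3, with Prom1 just above Smoc2 in control 1 and below it in the other libraries. Slc12a2, Sox9 and Ascl2 exchanged ranks 4 to 6. Slc12a2 ranked 4 in control 1 and 6 in Kdm6b-deficient 3, and Ascl2 ranked 5 in Kdm6b-deficient 3 and 6 elsewhere. Lgr5 ranked 7 and Axin2 ranked 8 in every library.

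In the median of the 7 genes, the libraries of a group differed as much as the groups did, but Slc12a2 did not follow this, with 0.35 between the control libraries and 0.38 between the Kdm6b-deficient libraries beside its log2 fold change of 0.95. Between the 2 control libraries, control 3 minus control 1, the median difference of the 7 genes was 1.41 in log2(FPKM + 1), and 4 of them differed by more than 1 (6.51% of all genes tested). Between the 2 Kdm6b-deficient libraries, 3 minus 1, the median was 1.46 and 6 of the 7 differed by more than 1 (7.05% of all genes). Across genotypes with equal replicate numbers, the median was 1.40 for Kdm6b-deficient 1 minus control 1, with 4 of 7 above 1 (7.01%), and 1.45 for Kdm6b-deficient 3 minus control 3, with 6 of 7 above 1 (7.17%). Between Kdm6b-deficient 1 and control 3 the median was 0.04 and none of the 7 was above 1 (3.44%). The values there ran from -0.25 for Smoc2 to 0.58 for Slc12a2. Between the libraries at the ends of the order, Kdm6b-deficient 3 minus control 1, the median was 2.78 and 7 of 7 were above 1 (13.7%).

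**Figure D2:**
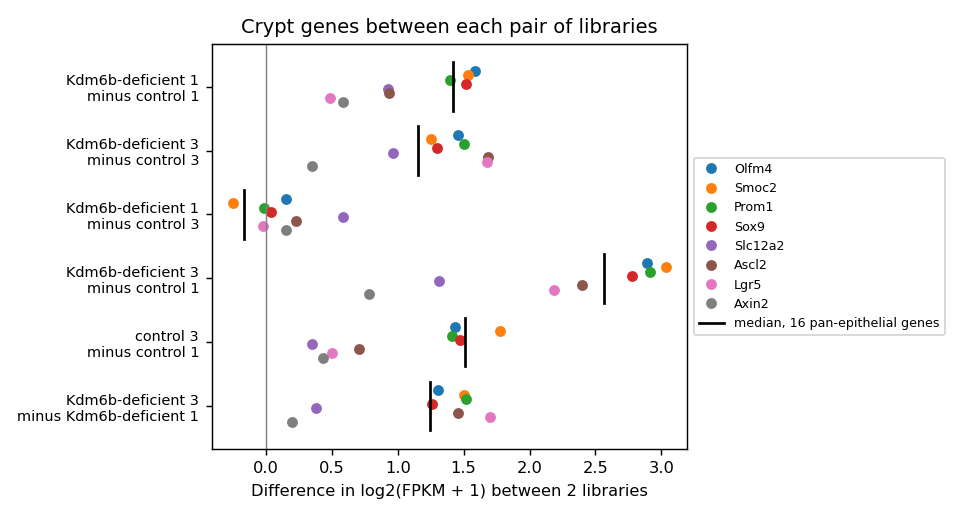
Difference in log2(FPKM + 1) of each crypt gene between each pair of libraries, 1 point per gene, with a black bar at the median of 16 pan-epithelial genes. Between Kdm6b-deficient 1 and control 3 the crypt genes run from -0.25 (Smoc2) to 0.58 (Slc12a2), beside a pan-epithelial median of -0.16, and each of the 8 has its largest difference between Kdm6b-deficient 3 and control 1.

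Genes of a pan-epithelial list had a similar profile over the libraries. Relative to control 1, the summed FPKM of 16 pan-epithelial genes (Krt8, Krt19, Lgals4, Epcam and others) was 3.10-fold in control 3, 2.81-fold in Kdm6b-deficient 1 and 7.61-fold in Kdm6b-deficient 3. The sum of the 8 crypt genes was 2.76-fold, 3.02-fold and 7.59-fold. Sox9 was above the pan-epithelial fold in each of these 3 libraries, at 4.26-fold, 4.41-fold and 11.7-fold. Lgr5 was below it in control 3 and Kdm6b-deficient 1, at 2.24-fold and 2.18-fold, and above it in Kdm6b-deficient 3, at 11.5-fold. Slc12a2 and Axin2 had the flattest profiles, reaching 2.97-fold and 4.29-fold in Kdm6b-deficient 3. The sum of 12 IEL genes ran the other way, at 0.696-fold, 0.666-fold and 0.511-fold.

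**Figure D3:**
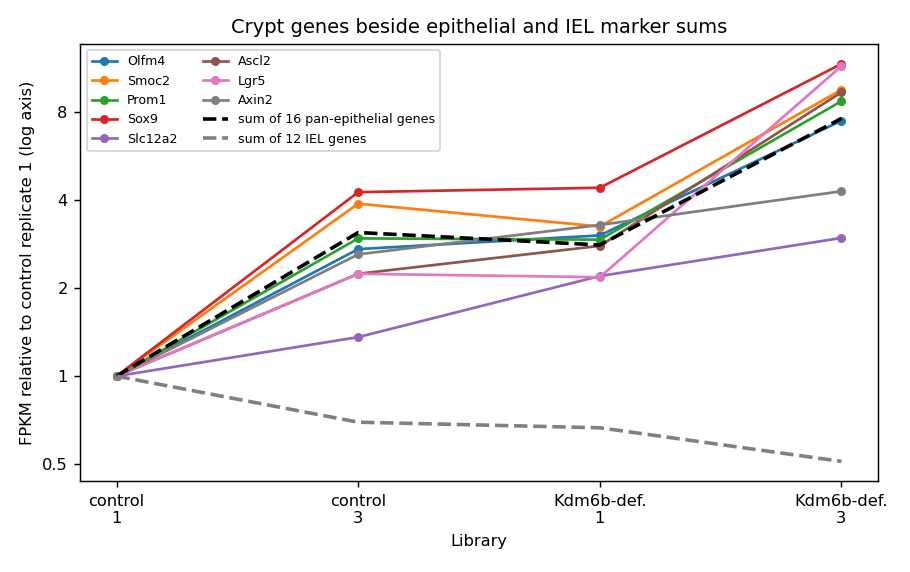
FPKM of each crypt gene, of the summed 16 pan-epithelial genes and of the summed 12 IEL genes, relative to control 1 (log axis), with lines joining the 4 libraries for legibility only. Most crypt genes follow the pan-epithelial sum, which reaches 7.61-fold in Kdm6b-deficient 3, Slc12a2 reaches 2.97-fold, and the IEL sum drops to 0.511-fold.

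The 16 pan-epithelial genes were all detected in each library, none at 0, with sums of 1071 and 3317 FPKM in the control and 3010 and 8146 FPKM in the Kdm6b-deficient libraries. Of these genes 12 had a log2 fold change above 1 (6.20% of all genes), with a median of 1.25 and none with adjusted p under 0.05. Krt8, the most abundant, was at 275, 987, 875 and 2518 FPKM in control 1, control 3, Kdm6b-deficient 1 and Kdm6b-deficient 3. Krt19, the next, was at 227, 743, 669 and 2075 FPKM in the same order, so that both weigh most in the sum. The part of epithelial RNA in the differences of the crypt genes between the groups was not tested. In bulk RNA more cells of a type and more RNA per cell cannot be told apart.

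Divided by the pan-epithelial sum of the same library, the crypt genes differed little between the groups. Per 1000 pan-epithelial FPKM, Olfm4 was at 90.2 and 79.4 FPKM in control 1 and 3 and at 97.2 and 88.7 FPKM in Kdm6b-deficient 1 and 3, a range of 1.22-fold in place of 7.48-fold. On the same scale Prom1 was at 5.15 and 4.92 FPKM in control and at 5.35 and 5.90 FPKM in Kdm6b-deficient libraries, and Smoc2 at 4.90 and 6.16 FPKM in control and at 5.67 and 6.15 FPKM in Kdm6b-deficient libraries. From the lowest to the highest library the ratio was 1.2 for Prom1 and 1.26 for Smoc2. Sox9 was at 1.12 and 1.54 FPKM per 1000 in control and at 1.76 and 1.73 FPKM per 1000 in Kdm6b-deficient libraries, with both Kdm6b-deficient values above both controls. The widest range was that of Slc12a2, 2.56-fold, with 2.87 and 1.26 FPKM per 1000 in control and 2.24 and 1.12 FPKM per 1000 in Kdm6b-deficient libraries, so that the replicates numbered 1 were the higher of each genotype.

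Lgr5 was at 0.476 and 0.344 FPKM per 1000 in control and at 0.369 and 0.718 FPKM per 1000 in Kdm6b-deficient libraries, and only Kdm6b-deficient 3 stood above the rest. Ascl2 was at 0.971 and 0.702 FPKM per 1000 in control and at 0.963 and 1.19 FPKM per 1000 in Kdm6b-deficient libraries. Axin2 was at 0.262 and 0.220 FPKM per 1000 in control and at 0.306 and 0.147 FPKM per 1000 in Kdm6b-deficient libraries, its lowest value being in Kdm6b-deficient 3. The log2 difference of the group means on this scale ran from -0.26 for Slc12a2 to 0.41 for Sox9, with a median of 0.15 over the 8 genes. Both Kdm6b-deficient libraries were above both controls for 2 of the 8, Sox9 and Prom1, against 1.40% of the 12009 genes tested. Dividing by this sum lowers genes that do not rise with it, and 31.1% of all genes had both Kdm6b-deficient libraries below. Both were above for 3 of 8 goblet, 1 of 16 pan-epithelial, 1 of 13 enterocyte and 0 of 8 Paneth genes. Shares of all genes on such scales are thus no measure of an excess in crypt genes. For the crypt genes the position depended on the denominator. Per enterocyte FPKM it held for Ascl2, Sox9 and Prom1 (1.48% of all genes), per Paneth FPKM, a denominator chosen after the values were seen, for none of the 8 (0.958%), and after scaling by the median ratio of the pan-epithelial genes for Olfm4, Ascl2, Sox9 and Prom1 (2.07%).

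**Figure D4:**
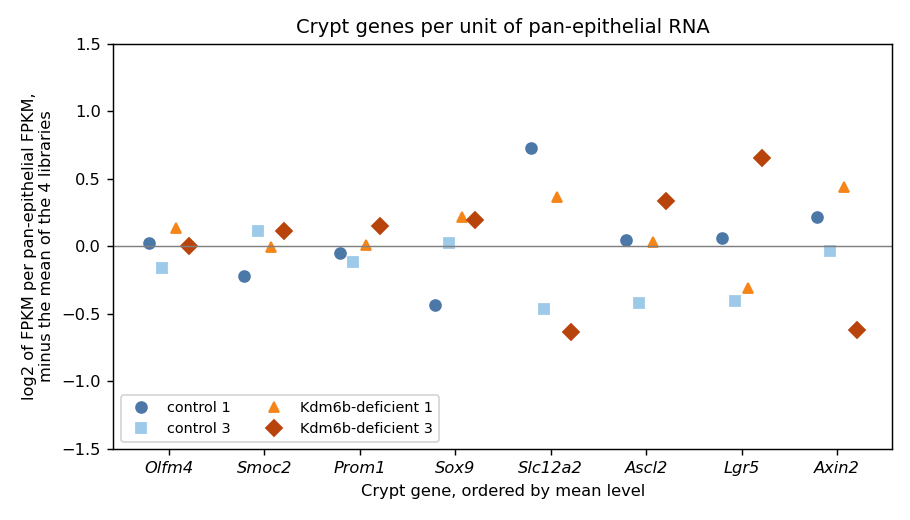
Log2 of each crypt gene's FPKM divided by the summed FPKM of 16 pan-epithelial genes, minus its mean over the 4 libraries, 1 point per library. Olfm4, Smoc2 and Prom1 stay near 0 in each library, and Slc12a2, Lgr5 and Axin2 spread most, with the groups overlapping in 6 of the 8 genes.

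Enterocyte, Paneth, goblet and enteroendocrine genes had similar median fold changes, but not all had the same profile over the libraries. The 1 tested gene of tuft cells, Avil, had a log2 fold change of -0.11. Of 13 enterocyte genes 12 had a log2 fold change above 1 (median 1.30), of 8 Paneth cell genes 8 (median 1.44), of 8 goblet cell genes 7 (median 1.49) and of 8 enteroendocrine genes tested 6 (median 1.67), with none of them at an adjusted p under 0.05. Of all genes tested, 6.20% were above 1. Relative to the pan-epithelial sum, the median log2 difference was -0.02 for enterocyte, 0.07 for Paneth and 0.12 for goblet genes, beside 0.15 for the crypt genes. It was 1.10 for enteroendocrine genes, which ranged from -3.41 to 2.66, with both Kdm6b-deficient libraries above both controls in 2 of 9 (1.40% of all genes), both below in 2 (31.1% of all genes) and an overlap in 5. Of the 4 most abundant, Sct, Chgb and Cck overlapped, and Gcg, the proglucagon gene, was at 0.205 and 0.534 FPKM per 1000 in control and at 1.92 and 2.28 FPKM per 1000 in Kdm6b-deficient libraries. Paneth cells lie next to the stem cells, and in control 3 the sum of their genes was 8.05-fold that of control 1, beside 2.76-fold for the crypt genes. In Kdm6b-deficient 1 and 3 it was 4.18-fold and 14.3-fold, beside 3.02-fold and 7.59-fold. The enteroendocrine sum was 1.64-fold in control 3, 6.71-fold in Kdm6b-deficient 1 and 5.67-fold in Kdm6b-deficient 3.

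Further genes of Lgr5+ crypt cells, taken from a list of 20, gave a mixed picture. Of the 15 tested, 6 had a log2 fold change above 1, none below -1 and none an adjusted p under 0.05, with a median of 0.52, where 6.20% of all genes were above 1. Both Kdm6b-deficient libraries were above both controls for 10 of the 15, beside 18.4% of all genes. Kcne3, a potassium channel subunit of crypt cells, was at 18.1, 44.7, 50.8 and 122 FPKM in control 1, control 3, Kdm6b-deficient 1 and Kdm6b-deficient 3 (log2 fold change 1.43). Phgdh, an enzyme of serine synthesis, was at 130, 113, 98.0 and 90.6 FPKM (log2 fold change -0.36), lower in both Kdm6b-deficient libraries. Nap1l1, a histone chaperone, was at 84.7, 109, 88.2 and 76.4 FPKM (log2 fold change -0.22), and Cdca7, a gene of dividing cells, at 20.1, 38.7, 29.6 and 47.1 FPKM (log2 fold change 0.41). Phgdh and Nap1l1 do not have the profile of the 8 genes, with lower values in Kdm6b-deficient 3 than in control 1. Phgdh was highest in control 1, as was the sum of the IEL genes. Which cells the RNA of either gene came from was not tested.

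**Figure D5:**
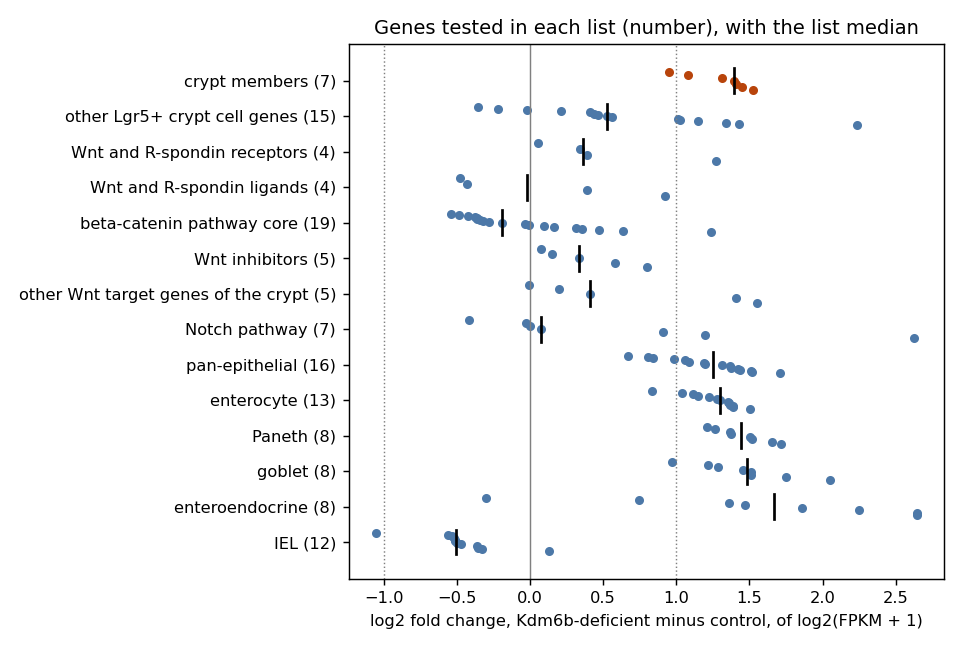
Log2 fold change of log2(FPKM + 1), Kdm6b-deficient minus control, of each tested gene of each list (1 point per gene, number tested in parentheses), with black bars at the list medians and dotted lines at -1 and 1. The 7 crypt genes lie between 0.95 and 1.52 with a median of 1.39, beside medians of 1.25 for pan-epithelial, 1.30 for enterocyte, 1.44 for Paneth and 1.49 for goblet genes, while the lists of the Wnt pathway centre between -0.19 and 0.41.

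The Wnt pathway was described from lists of its receptors, ligands, core, inhibitors and further targets, in which no gene had an adjusted p under 0.05. Of 15 receptor genes 4 passed the filter on low values and 1 of them was above 1 (6.20% of all genes). This was Lgr4, the relative of Lgr5 that also binds R-spondins, with a log2 fold change of 1.27, at 2.46 and 6.72 FPKM in control and at 10.5 and 12.5 FPKM in Kdm6b-deficient libraries. The other 3, Fzd5, Lrp6 and Fzd6, lay between 0.05 and 0.39. Of 14 ligand and ligand secretion genes 4 were tested and none was above 1 or below -1, where 6.20% and 0.441% of all genes were. Wnt3, the Wnt ligand of Paneth cells, was at 0.14 and 1.85 FPKM in control and at 1.53 and 3.62 FPKM in Kdm6b-deficient libraries (log2 fold change 0.92), whereas Wls, which carries Wnt proteins to the surface of many cell types, was at 59.1 and 46.4 FPKM in control and at 32.2 and 46.0 FPKM in Kdm6b-deficient libraries.

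The core of the β-catenin pathway is used by T cells and epithelium alike. Of 20 core genes 19 were tested, and 1 had a log2 fold change above 1, a share near the 6.20% of all genes, with a median of -0.19. That gene was Tcf7l2, the TCF factor of the intestinal epithelium, at 1.75 and 6.44 FPKM in control and at 7.64 and 12.2 FPKM in Kdm6b-deficient libraries (log2 fold change 1.24), and it is named here after its values were seen. Tcf7, the TCF factor of T cells, was at 51.2 and 49.6 FPKM in control and at 46.3 and 27.4 FPKM in Kdm6b-deficient libraries (log2 fold change -0.49). Ctnnb1, which encodes β-catenin, was at 52.3 and 41.2 FPKM in control and at 57.0 and 62.5 FPKM in Kdm6b-deficient libraries (log2 fold change 0.36). The median was 0.33 for 5 tested inhibitors of 13, none of them above 1 (6.20% of all genes). Rnf43, a ligase that removes Wnt receptors from the surface of crypt cells, had a log2 fold change of 0.80.

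Of 9 further Wnt target genes of the crypt 5 were tested and 2 had a log2 fold change above 1, beside 6.20% of all genes. Ccnd1, cyclin D1, was at 0.86 and 4.57 FPKM in control and at 8.05 and 8.85 FPKM in Kdm6b-deficient libraries (log2 fold change 1.55). Mmp7, which in the small intestine is the protease of Paneth cells that processes defensins, was at 20.9 and 150 FPKM in control and at 121 and 190 FPKM in Kdm6b-deficient libraries (log2 fold change 1.41), and the groups overlapped. Myc, which T cells also express, was at 62.2 and 72.7 FPKM in control and at 66.6 and 67.1 FPKM in Kdm6b-deficient libraries (log2 fold change -0.01).

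In the Notch pathway 7 of 11 genes were tested and 2 had a log2 fold change above 1 (6.20% of all genes), with a median of 0.07 and none at an adjusted p under 0.05. Hes1, the transcriptional repressor by which Notch holds progenitors out of the secretory lineages, was at 3.81 and 9.85 FPKM in control and at 38.7 and 48.9 FPKM in Kdm6b-deficient libraries (log2 fold change 2.62). Relative to the pan-epithelial sum Hes1 was at 3.56 and 2.97 FPKM per 1000 in control and at 12.8 and 6.00 FPKM per 1000 in Kdm6b-deficient libraries, with both Kdm6b-deficient libraries above both controls on that scale (1.40% of all genes). Olfm4, which Notch also induces, overlapped there, as did Kcne3, Lgr4, Rnf43, Ccnd1 and Mmp7 of the lists above. The other gene above 1 was Atoh1, the factor of the secretory lineages, with a log2 fold change of 1.2, named after its values were seen. Notch1, Notch2 and Rbpj lay between -0.03 and 0.07.

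The genes whose profiles were most like that of the crypt genes were sought among 12002 other tested genes. The measure was the root mean square distance, in log2(FPKM + 1) over the 4 libraries, from the mean profile of the 7 tested crypt genes, each gene centred on its own mean. The mean profile was -1.2 in control 1, -0.10 in control 3, 0.00 in Kdm6b-deficient 1 and 1.3 in Kdm6b-deficient 3. The 10 nearest genes were Arhgap32, Fahd1, Baiap2l1, Ush1c, Ppp1r14d, Cyp2d26, Mylk, Cldn15, Rnf128 and Slc25a15, at distances of 0.0334 to 0.0562. Cldn15, a claudin of tight junctions and a member of the pan-epithelial list, was at 23.8, 53.4, 53.0 and 130 FPKM in control 1, control 3, Kdm6b-deficient 1 and Kdm6b-deficient 3. Arhgap32, the nearest, was at 0.84, 3.12, 3.49 and 9.77 FPKM. Among the crypt genes themselves Sox9, Ascl2, Prom1 and Olfm4 lay at 0.145 to 0.164 from their mean profile, Smoc2 and Lgr5 at 0.256 and 0.275, and Slc12a2 at 0.455. A likeness over 4 libraries is a description of these libraries.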

How the data were processed

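The authors sorted the IELs into TRIzol, had the pooled RNA sequenced on the HiSeq platform and mapped the reads with HISAT and Bowtie2 to the mm10 genome. RSEM gave the gene levels. The submitters' processing notes name Bowtie2 2.2.5 and RSEM 1.2.8. The deposited values are FPKM with 2 decimals, so that no count model was used. The gene annotation is not given in the sources used here. The list of 8 genes, the other gene lists and the tests were chosen with earlier results of these data known.

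Entrez identifiers were matched to RefSeq symbols of GRCm38.p6 (18467 of 19339). The filter kept a gene that reached 1 FPKM in 2 or more libraries. Kept genes were tested as log2(FPKM + 1) in limma 3.58.1 under R 4.3.3 (eBayes, trend on), and p-values were adjusted by Benjamini-Hochberg over all of them. The model was tested on simulated data. Sums, ratios and distances were computed in Python 3.11.15 (numpy 2.4.6, pandas 2.3.3), and figures drawn with matplotlib 3.10.9. Named are the 8 genes, genes among the 4 most abundant of each list, Kdm6b and the 10 genes nearest in profile. Tcf7l2 and Atoh1 were named after their values were seen. Fragment numbers were estimated from steps in FPKM multiplied by transcript length and cover counting error only. Alternatives were the pseudocount, the filter, 4 scalings, the ratio of group means, a replicate block, no trend, other denominators and leaving out each library. Wnt9a, Rspo1, Rspo4, Dkk1, Il25 and Cdh5 were not analysed here.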

Additional observations from a re-analysis of the deposited data

How the results depend on the processing

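The 6 crypt genes with a log2 fold change above 1 rested on the libraries at both ends of the order. Leaving out each library in turn gave 0 to 7 such genes and a median of 0.69 to 2.15, with 0 genes without control 1 (median 0.77, 2.54% of all genes) and 0 without Kdm6b-deficient 3 (median 0.69, 2.96%), and 7 without control 3 (10.6%) or without Kdm6b-deficient 1 (10.9%). The lone library of a group was there taken to vary like the other group. The number of all genes above 1 was then 305 to 1314 in place of 744, and that below -1 was 59 to 263 in place of 53.

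Scaling to the pan-epithelial genes, which shifted the median of all genes by -1.17, left 0 of the 7 crypt genes above 1, with a median of 0.24, and turned Slc12a2 to -0.15 (adjusted p = 0.926). It gave 40 genes above 1, 7700 below -1 and 1 with adjusted p under 0.05. Scaling to Cd3 genes and Ptprc put the median of all genes at 0.36 and gave 1408 and 26 genes. A pseudocount of 0.1 gave 1203 and 178 genes, one of 0.01 gave 1254 and 197, and the ratio of group means 1173 and 141. Below -1 lay 34 genes with a filter of 5 FPKM and 97 after quantile normalization. Under each alternative the median of the tested crypt genes stayed 0.66 to 2.16 above that of all genes. Scaling by 1 factor per library moves both medians together, so the gap there, 1.35 to 1.41, was nearly fixed in advance. The replicate block and the fit without a trend leave the fold changes as they are. The gap is therefore no check of those settings. The median relative to pan-epithelial FPKM, 0.15, was 0.12 to 0.24 per enterocyte FPKM, with the median of ratios or without any 1 library, and 0.09 per Paneth FPKM, a denominator chosen after seeing the data.

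Both groups carry the replicate numbers 1 and 3, and no source used here says that a number marks a shared preparation. Deviations from the group means correlated between same-numbered libraries at r = 0.56 across 12009 genes, which are not independent. Under a replicate block 1019 genes had an adjusted p under 0.05 in limma, 886 of them higher (7.38%), among them 6 of the 7 tested crypt genes, Olfm4, Prom1, Smoc2, Sox9, Ascl2 and Slc12a2 (adjusted p of 0.000473 to 0.0482). Lgr5 had an adjusted p of 0.0806. By estimated fragments, depth limits Axin2 most, then Ascl2 and Lgr5.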

Other observations

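Markers of further cell types that a sort could hold were at low or moderate levels, apart from the myeloid gene Lyz2. The summed FPKM of 5 myeloid genes was 442 and 305 in control 1 and 3 and 498 and 706 in Kdm6b-deficient 1 and 3. Most of that sum was Lyz2, at 365 and 253 FPKM in control 1 and 3 and at 396 and 626 FPKM in Kdm6b-deficient 1 and 3. In Kdm6b-deficient 3 it was above Epcam, at 457 FPKM. Of the 5 myeloid genes 3 had both Kdm6b-deficient libraries above both controls (18.4% of all genes tested), and 2 overlapped. The summed FPKM of 8 stromal and endothelial genes was 19.3 and 17.8 in control and 15.8 and 15.6 in Kdm6b-deficient libraries. B cell genes summed to 1.96 to 5.10 FPKM. Of 5 tuft cell genes 1 passed the filter on low values, Avil, at 5.95 to 7.95 FPKM, and Dclk1 was at 0.06 to 0.27 FPKM. Cd4, which the gate excludes, was at 30.6 and 10.1 FPKM in control and at 30.5 and 3.17 FPKM in Kdm6b-deficient libraries, highest in the replicates numbered 1.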
